A study of Drosophila melanogaster with 18 samples.

Results

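Gene expression in single heads of flies trained with an odor and sucrose was compared with that in heads of flies that received the odor alone, with 6 female Drosophila melanogaster in each group. All flies were starved, as is usual in appetitive associative conditioning, in which hungry flies learn to link an odor to a sugar reward. The sucrose group is labelled as trained with sucrose and was collected 4 h after training, and the odor group is labelled naive and without sugar, which the study describes as starved flies exposed to octanol. Another group of 6 was trained with the odor and sorbose, which is sweet to flies but has no food value for them, and its values are given beside the others where they bear on a result. The labels give no collection time for the odor group, so that sugar, training and time of collection cannot be told apart in what follows. Flies were kept at 25 °C with 12 h of light and 12 h of dark, and no strain, age or mutant allele is given in the labels. Of 17559 genes in the deposited table, 11066 had a mean of at least 0.5 RPKM (reads per kilobase of exon per M, or 1000000, mapped reads) over the 12 heads and were tested. These genes were read through 67 lists of functional classes and pathways and 9 lists of cell type markers.

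In a starved fly, fat and glycogen stores are broken down, amino acids are turned into fuel and sugar, and low insulin and TOR (target of rapamycin) signalling allows FOXO to switch on genes of saving and recycling. Feeding turns this around: insulin and TOR signalling favour the making of ribosomes, protein and stores. A fly head holds brain, eyes, muscle and cuticle, and also a layer of head fat body, the tissue that stores fat and secretes blood and yolk proteins. Bulk RNA of a head cannot tell fewer cells of a type from less RNA per cell.

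Between sucrose and odor flies, 1171 genes (10.6%) were higher and 1276 (11.5%) lower after sucrose, which makes 2447 or 22.1% called (limma on log2(RPKM + 0.5), Benjamini-Hochberg adjusted p under 0.05). All 6 sucrose flies lay above all 6 odor flies in 492 genes (4.45%), and all 6 lay below in 553 genes (5.0%). Most differences were small: the median of the absolute log2 difference among called genes was 0.407, and 143 rises and 133 falls reached 1 on the log2 scale. The median over all tested genes was -0.00124, which the scaling of the libraries in RPKM may hold near 0. Odor flies were not alike. Odor replicates 1 and 6 lay farthest out on the first principal component (47.4% of the variance), at 50.0 and 46.3, while the other odor flies lay between -9.57 and 26 and the sucrose flies between -32.4 and -4.04. Without these 2 flies, 553 genes (5.0%) were called higher and 602 (5.44%) lower, and 1076 of the 2447 calls were kept, all in the same direction. Most list counts are therefore given with and without them. Leaving out odor replicate 6 alone left 1556 calls.

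Differences are given below as sucrose minus odor on the log2(RPKM + 0.5) scale with their standard error (n = 6 flies in each group), on which genes of low RPKM appear to change less than they did. Groups are called apart where all 6 flies of one lay above all 6 of the other. Every list count is to be read beside the 10.6% higher and 11.5% lower of all tested genes. Effective depth, the library size recovered from RPKM, was 58.4 to 77.2 M reads in odor flies and 45.8 to 60.5 M in sucrose flies. It was not the sum of reads over genes: effective and summed values were 58.7 and 61.9 M in odor replicate 2. In sucrose replicate 5 they were 57.4 and 52.1 M. The median of odor means was 7.43 RPKM for genes that rose, 10.5 RPKM for genes not called and 21 RPKM for genes that fell. By sucrose means the medians were 10.72, 10.45 and 15.01 RPKM in the same order. Each group mean is part of the difference used for the calls, so these medians depend in part on the calling. Genes that fell lay above genes not called by both means, whereas genes that rose lay well below them by the odor mean only. Genes that fell also had longer exonic sequence, with a median of 2326 bases against 1806 for those that rose and 1872 for those not called. The X chromosome held 16.2% of the rises and 16.5% of the falls, near the 16.4% of genes not called. Markers of head tissues were present at high levels. The summed RPKM of 8 neuronal markers was 793 to 932 in odor flies and 768 to 857 in sucrose flies, and that of 8 photoreceptor markers 15292 to 20824 and 15707 to 19465; none of the 16 was called. Markers of ovary, midgut and testis mostly lay under the minimum, with 3 of 9, 1 of 24 and 1 of 14 tested. Their summed RPKM was 9.26 to 11.6, 4.74 to 80.8 and 2.39 to 3.31 in odor flies. In sucrose flies it was 10.3 to 12.2, 8.23 to 24.2 and 2.17 to 2.93. The 1 midgut gene tested lay from -1.70 (odor replicate 6) to 2.49 (odor replicate 2) around its 12-fly mean on the log2 scale. Whether gut tissue had a part in other values was not tested.

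**Figure D1:**
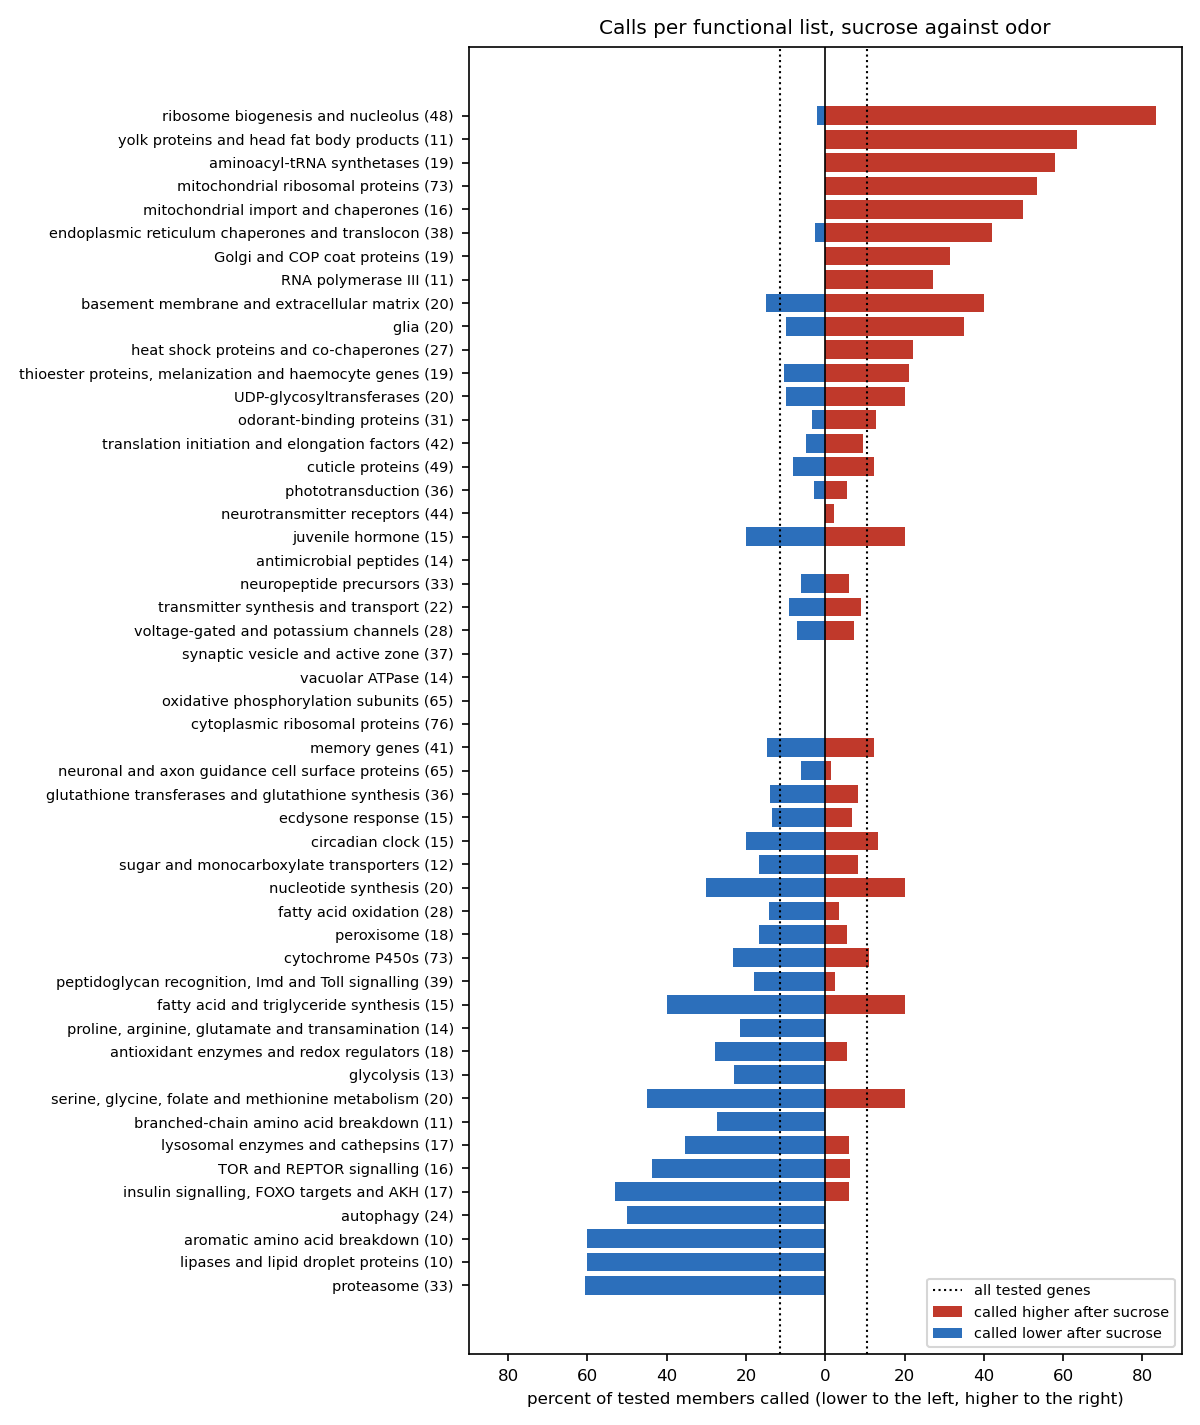
Percent of tested members called higher (right) or lower (left) after sucrose in functional lists with at least 10 tested genes and at least 3 calls, plus 6 lists kept for contrast, with the number tested in brackets. Dotted lines mark all tested genes (10.6% higher, 11.5% lower). Nucleolar genes stand farthest to the right with 83.3%, and proteasome, lipase and aromatic amino acid genes farthest to the left.

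Among lists of at least 10 tested genes, that of ribosome biogenesis had the highest percent of members called. Of 48 nucleolar genes tested, 40 (83.3%) were higher after sucrose and 1 was lower, with a median log2 difference of 0.60, and in 32 of them all sucrose flies lay above all odor flies. Without odor replicates 1 and 6, 35 were higher and 0 lower (median 0.63), and leaving out any 1 fly left at least 38. The rises were led by the proteins that build small nucleolar RNA particles, which guide the chemical marking of ribosomal RNA. nop5 (FBgn0026196, 2L, 6916753 to 6918743), a core protein of the C/D box particles, was at 2.57 to 4.02 RPKM (median 2.84) in odor flies and at 7.98 to 18.3 RPKM (median 14.1) in sucrose flies. The lowest sucrose fly thus lay well above the highest odor fly, and the medians differed 4.96-fold (log2 difference 1.91 ± 0.20, limma adjusted p = 0.00089). Fib, the methyltransferase of the same particle, stood at 3.36 to 5.03 RPKM (median 3.86) in odor flies and 8.6 to 21.7 RPKM (median 14.4) in sucrose flies (log2 difference 1.67 ± 0.21, limma adjusted p = 0.0013). Nop56, another core protein, went from a median of 5.08 to 13.6 RPKM (log2 difference 1.25 ± 0.17, limma adjusted p = 0.0017), again with no overlap. hoip, the RNA-binding protein that nucleates the particle, rose from 4.01 to 15.5 RPKM (log2 difference 1.88 ± 0.24, limma adjusted p = 0.0014).

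The H/ACA particles, which turn uridine into pseudouridine, moved with them. Their catalytic subunit Nop60B was at 2.33 to 3.58 RPKM (median 2.57) in odor flies and 5.22 to 12.2 RPKM (median 8.57) in sucrose flies (log2 difference 1.46 ± 0.18, limma adjusted p = 0.00095), and NHP2 at 3.86 to 7.02 RPKM (median 4.46) and 9.55 to 19.2 RPKM (median 15.1) (log2 difference 1.5 ± 0.17, limma adjusted p = 0.00089). In both genes the groups did not overlap. nclb, a chromatin protein that promotes ribosomal RNA transcription, rose by 1.04 on the log2 scale (adjusted p = 0.0035, limma), and CG8545 by 1.22 (adjusted p = 0.0017, limma). Of the 48 nucleolar genes 43 had differences above 0, and the lowest difference, -1.18, was not called. The 1 nucleolar gene called lower, Sbds, acts late, when the large subunit is released for translation. Its RPKM was 12.3 to 19.2 in odor flies and 10.2 to 11.9 in sucrose flies (log2 difference -0.46 ± 0.11, limma adjusted p = 0.016), and without odor replicates 1 and 6 it was no longer called (adjusted p = 0.068). Myc, which drives nucleolar genes in growing fly tissue, was at 4.36 to 9.27 RPKM (median 6.43) in odor flies and 3.87 to 7.79 RPKM (median 6.89) in sucrose flies and was not called (log2 difference -0.07 ± 0.21, limma adjusted p = 0.83). Of the Myc exons, 40.9% overlap CG12535 on the other strand and 20.3% a long noncoding RNA, whose reads cannot be separated in these libraries. The noncoding RNA had a mean of 99.9 RPKM in odor flies, against 6.69 for Myc, and the 2 correlated at r = 0.972 over the 12 flies. The Myc values may therefore be in part those of its neighbours.

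**Figure D2:**
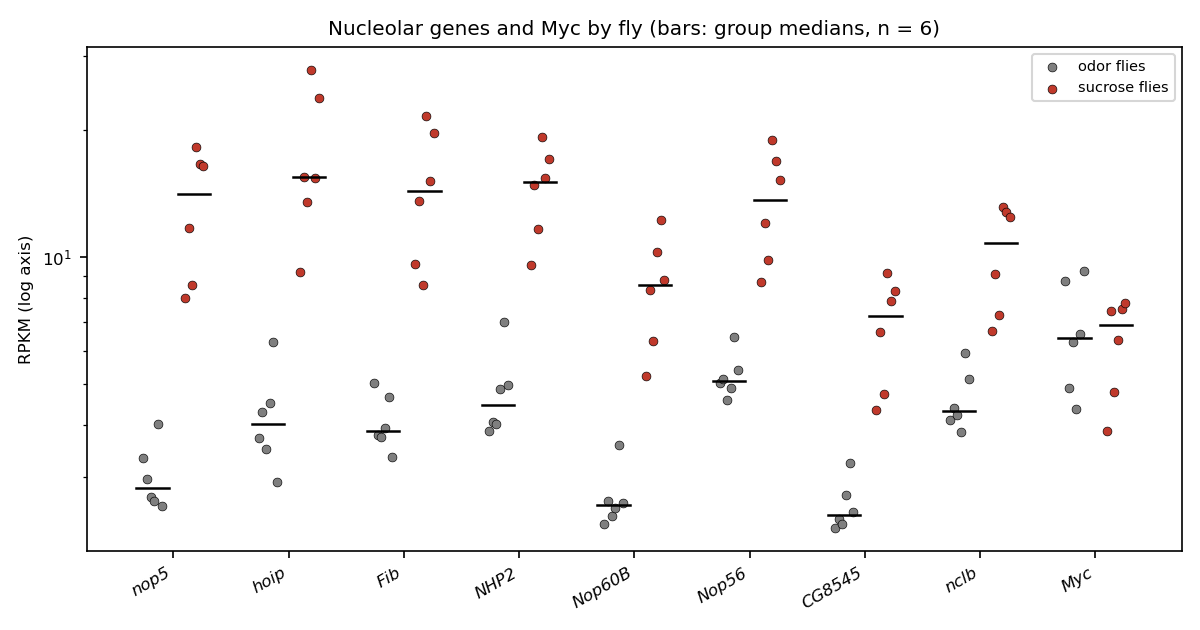
RPKM (log axis) of 8 nucleolar genes and Myc in each of the 6 odor flies (grey) and 6 sucrose flies (red), with bars at the group medians. For the nucleolar genes every sucrose fly lies above every odor fly, while the 2 groups overlap for Myc. Part of the Myc exons are shared with a more abundant noncoding RNA.

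Other parts of the machinery that supplies translation were also higher, by smaller amounts. Of 73 mitochondrial ribosomal proteins, 39 (53.4%) were higher and 0 lower, with a median of 0.25. This count depended on the odor flies more than the nucleolar one did: it was 14 of 73 without odor replicates 1 and 6 and 29 without either odor replicate 6 or sucrose replicate 2. mRpS10 showed the largest rise of the class, with odor flies at 8.28 to 11.1 RPKM (median 9.7) and sucrose flies at 12.4 to 15.5 RPKM (median 13.3) (log2 difference 0.45 ± 0.07, limma adjusted p = 0.003), and mRpS35 followed (log2 difference 0.43 ± 0.09, limma adjusted p = 0.0061). Of 19 aminoacyl-tRNA synthetases, the enzymes that load amino acids onto their transfer RNAs, 11 (57.9%) were higher and 0 lower (median 0.30), and 8 without odor replicates 1 and 6. AlaRS was at 7.53 to 9.09 RPKM (median 8.08) in odor flies and 9.51 to 17.3 RPKM (median 13.5) in sucrose flies (log2 difference 0.66 ± 0.12, limma adjusted p = 0.0052), and beta-PheRS at 6.61 to 7.76 RPKM (median 7.32) and 8.61 to 11.9 RPKM (median 11) (log2 difference 0.50 ± 0.07, limma adjusted p = 0.0022). In both the groups were apart. SerRS and ArgRS rose by 0.50 and 0.42 on the log2 scale (adjusted p = 0.012 and 0.0075, limma), and here the highest odor fly overlapped the lowest sucrose fly. Mitochondrial import proteins and chaperones were higher in 8 of 16 (median 0.31; 7 without odor replicates 1 and 6). Tom40, the channel of the outer membrane, was at 15.6 to 22.7 RPKM in odor flies and 23.2 to 26.7 RPKM in sucrose flies (log2 difference 0.40 ± 0.09, limma adjusted p = 0.012), and the small carrier Tim8 rose by 0.49 on the log2 scale (adjusted p = 0.0089, limma). Of 11 RNA polymerase III subunits and factors, which make transfer RNA, 3 were higher and 0 lower, also without odor replicates 1 and 6.

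Genes of 3 other large complexes were not called, unlike many of the mitochondrial ribosome above and of the proteasome below. None of 76 cytoplasmic ribosomal proteins was called (0 higher, 0 lower, limma; differences from -0.10 to 0.12, median -0.02), and neither was any of 65 subunits of oxidative phosphorylation (median 0.09) or of 14 of the vacuolar ATPase (median 0.04). Together 98.1% of these 155 genes lay within 0.2 of 0 on the log2 scale, against 62.6% of all tested genes. The 3 lists pooled here are ones with 0 calls, so this share follows in part from their choice. Translation factors were called no more often than genes at large: 4 of 42 (9.52%) were higher and 2 (4.76%) lower, against 10.6% and 11.5%. Without odor replicates 1 and 6 the counts were 4 and 1. eEF1delta, a nucleotide exchange factor of elongation, was at 33.7 to 83.7 RPKM (median 56.1) in odor flies and 89.2 to 124 RPKM (median 114) in sucrose flies (log2 difference 0.99 ± 0.23, limma adjusted p = 0.013). eIF2beta, a subunit of the factor that brings the initiator transfer RNA, rose from a median of 27.5 to 47.7 RPKM (log2 difference 0.69 ± 0.13, limma adjusted p = 0.0056). Paip2, known as an inhibitor of the poly(A)-binding protein in translation, went the other way, from 55.3 to 93.3 RPKM (median 69.7) in odor flies to 35.2 to 40.4 RPKM (median 39.1) in sucrose flies (log2 difference -0.89 ± 0.12, limma adjusted p = 0.0017). For these 3 genes the groups did not overlap, and the calls stood without odor replicates 1 and 6.

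**Figure D3:**
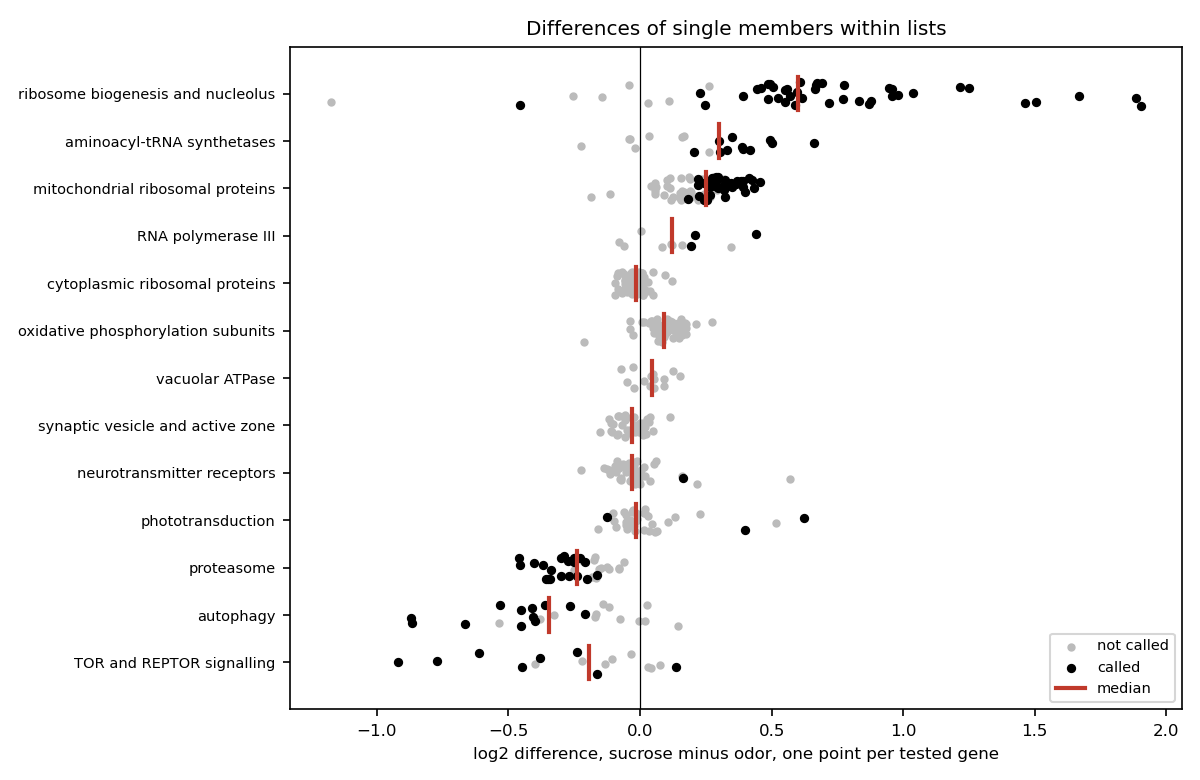
Log2 difference (sucrose minus odor) of each tested gene in 13 lists, with called genes in black, others in grey and the list median as a red bar. Nucleolar genes spread from -1.18 to 1.91 with most above 0, cytoplasmic ribosomal, respiratory and synaptic genes crowd around 0, and all 33 proteasome genes lie below 0.

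Part of the secretory pathway was also higher, though most of its genes were not called. Of 38 genes for endoplasmic reticulum chaperones, translocon and glycosylation, 16 (42.1%) were higher and 1 was lower (median 0.28), and 7 and 0 without odor replicates 1 and 6. Sec61gamma, a subunit of the channel through which new proteins enter, was at 16.9 to 28.6 RPKM (median 19) in odor flies and 27.9 to 52.3 RPKM (median 39.8) in sucrose flies (log2 difference 0.93 ± 0.16, limma adjusted p = 0.0034). The calcium-binding chaperone Calr was at 86.5 to 147 RPKM (median 104) and 145 to 319 RPKM (median 200.5) (log2 difference 0.96 ± 0.18, limma adjusted p = 0.0052), and the disulphide isomerase ERp60, named after its values were seen, at 48.5 to 80.2 RPKM (median 51.5) and 72.8 to 149 RPKM (median 104) (log2 difference 0.87 ± 0.17, limma adjusted p = 0.006). In these 3 genes only the edges of the groups overlapped. The main chaperone Hsc70-3 (BiP) had a median of 62.4 RPKM in odor and 101 RPKM in sucrose flies and was not called (log2 difference 0.90 ± 0.35, limma adjusted p = 0.082). Xbp1, the transcription factor of the unfolded protein response, was at 108 to 278 RPKM in odor flies and 114 to 146 RPKM in sucrose flies (log2 difference -0.55 ± 0.19, limma adjusted p = 0.063). Of 23 alternatives, Xbp1 was called lower in 4, among them the fit of 18 flies (adjusted p = 0.022, limma), and Hsc70-3 higher in 1. Golgi and coat proteins were higher in 6 of 19 (31.6%, against 10.6% of all genes). They were higher in 3 when odor replicate 3 or sucrose replicate 4 was left out and in 2 without odor replicates 1 and 6. epsilonCOP, of the coat of vesicles within the Golgi, was among those that kept the call, at 16.7 to 19.6 RPKM in odor and 19.9 to 28.5 RPKM in sucrose flies (log2 difference 0.39 ± 0.08, limma adjusted p = 0.0068).

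Secreted products of the fat body showed large rises and varied widely between flies. Of 11 genes for yolk proteins and head fat body products, 7 (63.6%) were higher and 0 lower, with a median of 1.82, and 4 without odor replicates 1 and 6. apolpp, the backbone of the lipoprotein that carries lipid in the blood, was at 8.69 to 98.3 RPKM (median 20.1) in odor flies and 119 to 433 RPKM (median 298) in sucrose flies (log2 difference 3.35 ± 0.62, limma adjusted p = 0.0052). Obp99b, an odorant-binding protein made in the head fat body, was at 0.436 to 3.68 RPKM (median 1.52) and 10.6 to 23.5 RPKM (median 13.6) (log2 difference 2.91 ± 0.32, limma adjusted p = 0.00089). The groups were apart in both genes. fit, a fat body peptide linked to satiety in flies, was at 0.658 to 19 RPKM (median 3.21) in odor flies and 39.7 to 247 RPKM (median 138) in sucrose flies (log2 difference 4.84 ± 0.80, limma adjusted p = 0.0032). Of the yolk proteins, Yp2 was at 384 to 940.0 RPKM in odor and 858 to 5357 RPKM in sucrose flies (log2 difference 1.54 ± 0.40, limma adjusted p = 0.02). Its adjusted p was 0.098 without odor replicates 1 and 6 and 0.0556 with replicate number as a block (limma). Yp1 had a log2 difference of 1.32 ± 0.37 with an adjusted p of 0.027, which was 0.0603, 0.0601 and 0.0635 without odor replicates 1, 3 and 6 in turn and 0.0573 without sucrose replicate 2. For Yp1 it was also 0.134 without odor replicates 1 and 6 together, 0.0654 with the block and 0.0581 with no RPKM minimum (limma). Yp3 (log2 difference 0.25 ± 0.33, limma adjusted p = 0.63) and the storage protein Lsp2 (log2 difference 1.82 ± 1.51, limma adjusted p = 0.42) were not called, and Lsp2 was at 1.35 to 138 RPKM in odor flies and 1.2 to 501 RPKM in sucrose flies. Reads of Yp1 and Lsp2 are shared with antisense genes. Among 7 fat body markers, which include members of this list, 5 were higher, and their summed RPKM was 2991 to 8266 in odor flies and 6131 to 23664 in sucrose flies. Whether the amount of fat body in each head had a part in these rises was not tested.

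Matrix proteins were mixed. Of 20 genes of basement membrane and matrix, 8 were higher and 3 lower, and 3 and 1 without odor replicates 1 and 6, and the 8 fell to between 3 and 5 when any one of odor replicates 1, 3 and 6 or sucrose replicates 2 to 5 was left out. Papilin (Ppn) was at 6.68 to 22.3 RPKM (median 17) in odor flies and 25.6 to 34.1 RPKM (median 27.7) in sucrose flies (log2 difference 0.98 ± 0.26, limma adjusted p = 0.022). The laminin alpha chain wb fell from 3.93 to 8.85 RPKM (median 6.59) to 1.15 to 3.35 RPKM (median 2.35) (log2 difference -1.22 ± 0.24, limma adjusted p = 0.0063). Both calls were kept whichever fly was left out, and in both genes the groups were apart. The summed RPKM of 6 markers of haemocytes, cells that also make matrix, was 36.0 to 54.5 in odor flies and 49.9 to 69.6 in sucrose flies. The markers did not move together: 2 were called higher and 1 lower, and 3 of the 6 had differences above 0. Whether haemocytes had a part in the matrix values was not tested.

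Among carbohydrate genes the largest falls were in gluconeogenesis. Of 5 gluconeogenesis genes, 3 were lower (median -1.23), and the same number without odor replicates 1 and 6 or without any 1 fly. Pepck2, one of the enzymes that commit carbon to glucose, was at 15.8 to 65.9 RPKM (median 37.3) in odor flies and 2.54 to 7.87 RPKM (median 3.09) in sucrose flies, a 12.1-fold lower median (log2 difference -3.11 ± 0.36, limma adjusted p = 0.00089). Pepck1, whose values are those of the overlapping gene CG45087 as well, fell from a median of 1337 to 91.2 RPKM (log2 difference -4.36 ± 0.76, limma adjusted p = 0.004). fbp, which takes the next step of the pathway that is not shared with glycolysis, was at 140.5 to 281 RPKM (median 183) and 56.8 to 152 RPKM (median 77.6) (log2 difference -1.23 ± 0.25, limma adjusted p = 0.0065), with the highest sucrose fly inside the odor range. The last enzyme, G6P, was at 5.04 to 5.88 RPKM in odor flies and 4.68 to 6.15 RPKM in sucrose flies (log2 difference 0.01 ± 0.06, limma adjusted p = 0.9). Of 13 glycolysis genes 0 were higher and 3 lower (5 lower without odor replicates 1 and 6), among them Hex-A, the first enzyme (96.1 to 129 RPKM (median 106) and 73.3 to 85.7 RPKM (median 82.2); log2 difference -0.42 ± 0.07, limma adjusted p = 0.0044) and Pgi (199 to 438 RPKM (median 355) and 144 to 230.5 RPKM (median 173); log2 difference -0.84 ± 0.22, limma adjusted p = 0.02). Pfk, its main control point, had medians of 85.3 RPKM in odor and 83.9 RPKM in sucrose flies and was not called (log2 difference 0.00 ± 0.12, limma adjusted p = 1).

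Sugar release, uptake and sensing gave single large changes: 2 of 9 maltases and glycosidases and 2 of 10 trehalose and glycogen genes were lower and 0 higher, and of 12 transporters 1 was higher and 2 lower. Without odor replicates 1 and 6 these falls were 2, 2 and 0. Of the 2 falls in each list, 1 was left in the trehalose and glycogen list for 10 of 12 flies left out in turn and in the maltase list without sucrose replicate 2 or 3, and 0 were left among transporters without odor replicate 2, 3 or 6 or sucrose replicate 2 or 5. The maltase Mal-B2 was at 196 to 397 RPKM (median 264) in odor flies and 65.7 to 131 RPKM (median 79.1) in sucrose flies (log2 difference -1.60 ± 0.22, limma adjusted p = 0.0017), and trehalase (Treh), which splits the blood sugar of insects, at 133 to 194 RPKM (median 183) and 99.5 to 127.1 RPKM (median 122) (log2 difference -0.54 ± 0.11, limma adjusted p = 0.006). Tps1, which makes trehalose, was not called (log2 difference -0.17 ± 0.18, limma adjusted p = 0.54). Pdk, the kinase that shuts off pyruvate dehydrogenase, fell from 89.2 to 153 RPKM (median 126.9) to 68.4 to 79.9 RPKM (median 72.2) (log2 difference -0.76 ± 0.12, limma adjusted p = 0.0023), with no overlap. pippin (FBgn0034909, 2R, 23812185 to 23818327), a carbohydrate transporter of the blood-brain barrier, was at 8.51 to 12.6 RPKM (median 10.3) in odor flies and 20.5 to 26.3 RPKM (median 23.3) in sucrose flies (log2 difference 1.13 ± 0.09, limma adjusted p = 0.00011). The spread within each group was small beside this 2.26-fold gap, although most of its exons overlap an antisense gene. Of the sugar-responsive transcription factors, sug was at 0.676 to 1.27 RPKM (median 0.849) in odor flies and 2.49 to 17.1 RPKM (median 9.55) in sucrose flies (log2 difference 2.66 ± 0.38, limma adjusted p = 0.0017), whereas Mondo, the sugar sensor that acts above it, fell from 45.6 to 27 RPKM (log2 difference -0.75 ± 0.13, limma adjusted p = 0.0044). In both the groups did not overlap. Of 10 genes of the pentose phosphate pathway and NADPH supply, 2 were lower, and 6 without odor replicates 1 and 6, where the median moved from -0.25 to -0.87. The 2 falls were 0 when any one of odor replicates 2 to 5 or sucrose replicates 1, 2, 5 and 6 was left out. Its first enzyme, Zw, was at 4.85 to 46.8 RPKM in odor flies and 12 to 24 RPKM in sucrose flies and was not called (log2 difference -0.11 ± 0.52, limma adjusted p = 0.91).

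Several genes that free fat were lower. Of 10 lipases and lipid droplet proteins 6 were lower and 0 higher, 4 without odor replicates 1 and 6, and 3 when odor replicate 2 or sucrose replicate 2, 3 or 4 was left out. bmm, the triglyceride lipase of the lipid droplet (ATGL in mammals), was at 133 to 351 RPKM (median 268) in odor flies and 25.3 to 98.3 RPKM (median 57.9) in sucrose flies, a 4.64-fold lower median (log2 difference -2.21 ± 0.37, limma adjusted p = 0.0035). The lipase CG5966 fell from a median of 85.1 to 1.74 RPKM (log2 difference -5.37 ± 0.34, limma adjusted p = 2.4e-05). mag, known as a lipase of the gut, was at 0.43 to 21 RPKM (median 9.53) in odor flies and at most 0.235 RPKM in sucrose flies (log2 difference -3.19 ± 0.78, limma adjusted p = 0.016), but its adjusted p was 0.073 without odor replicates 1 and 6 and 0.166 with voom on recovered reads. The lipid droplet protein Lsd-1, the member with the highest difference, named after its values were seen, was not called (log2 difference 2.10 ± 0.71, limma adjusted p = 0.052), but passed in 8 of 23 alternatives. Among 15 genes of fat synthesis 6 were lower and 3 higher, and 3 and 1 without odor replicates 1 and 6. The 3 rises became 1 when any one of odor replicates 1, 3 and 6 or sucrose replicates 2, 3 and 5 was left out, and the 6 falls became 2 without odor replicate 3 or 6 or sucrose replicate 2 and at most 4 without odor replicate 1 or 2 or sucrose replicate 1, 3 or 5. Lpin, the phosphatase that makes diacylglycerol, was at 79.1 to 215 RPKM (median 149.5) and 46.7 to 58.1 RPKM (median 51.5) (log2 difference -1.43 ± 0.21, limma adjusted p = 0.0022). AcCoAS, which turns acetate into acetyl-CoA, was at 251 to 377 RPKM (median 356) and 160.1 to 221 RPKM (median 183) (log2 difference -0.86 ± 0.11, limma adjusted p = 0.0014). The groups were apart in bmm, Lpin and AcCoAS, and these calls were kept in every alternative. Baldspot, an enzyme that lengthens fatty acids, rose by 0.37 on the log2 scale (adjusted p = 0.0087, limma). Of 28 genes of fatty acid oxidation 4 (14.3%, against 11.5% of all genes) were lower and 1 higher (median -0.36), and 3 and 1 without odor replicates 1 and 6 (median -0.60). Among the falls were whd, the carnitine transferase that lets fatty acids into mitochondria (68.8 to 95.5 RPKM (median 72.1) and 36.3 to 73 RPKM (median 52.6); log2 difference -0.55 ± 0.15, limma adjusted p = 0.022), and the peroxisomal oxidase Acox57D-p (11.7 and 6.15 RPKM; log2 difference -0.92 ± 0.17, limma adjusted p = 0.0051).

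Genes for the breakdown of amino acids were lower in several branches. Of 10 genes that degrade aromatic amino acids, 6 were lower and 0 higher (median -0.72), and 4 without odor replicates 1 and 6. They follow the pathway of phenylalanine in order. Hn, phenylalanine hydroxylase, was at 323 to 569 RPKM (median 413) in odor flies and 149.9 to 249 RPKM (median 195) in sucrose flies (log2 difference -1.09 ± 0.16, limma adjusted p = 0.0022). Hpd, the next oxygenase, was at 517 to 716 RPKM (median 539.7) and 85.2 to 376 RPKM (median 276) (log2 difference -1.28 ± 0.31, limma adjusted p = 0.014), and hgo, which opens the ring, at 38.1 to 104 RPKM (median 70.8) and 13.7 to 36.6 RPKM (median 30.4) (log2 difference -1.38 ± 0.28, limma adjusted p = 0.0068). GstZ2, the isomerase after it, was at 24.1 to 43.4 RPKM (median 35.2) and 13.4 to 19.9 RPKM (median 16.8) (log2 difference -0.98 ± 0.15, limma adjusted p = 0.0022). All 4 were apart. The tryptophan branch was not called at its first enzyme, v (log2 difference -0.48 ± 0.24, limma adjusted p = 0.18).

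Of 11 genes for branched-chain amino acids, 3 were lower and 0 higher (median -0.34; 4 without odor replicates 1 and 6). Bcat, the transaminase that starts the pathway, was at 81.1 to 438 RPKM (median 274) in odor flies and 4.09 to 34.3 RPKM (median 11.8) in sucrose flies (log2 difference -4.31 ± 0.60, limma adjusted p = 0.0017), and Dbct, a subunit of the dehydrogenase that follows, at 16.5 to 30.1 RPKM (median 17.9) and 9.01 to 12.5 RPKM (median 10.6) (log2 difference -0.83 ± 0.14, limma adjusted p = 0.0033). Of 14 genes for proline, arginine, glutamate and transamination, 3 were lower, also without odor replicates 1 and 6. Got1, the cytosolic aspartate aminotransferase, fell from 442 to 816 RPKM (median 611) to 136 to 263 RPKM (median 225) (log2 difference -1.55 ± 0.18, limma adjusted p = 0.00089), and Oat, which turns ornithine toward glutamate and proline, from 83.8 to 124 RPKM (median 107) to 19.9 to 92.6 RPKM (median 41.9) (log2 difference -1.41 ± 0.32, limma adjusted p = 0.011). Got1 was apart, and 1 sucrose fly reached into the odor range for Oat.

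A chain of enzymes from serine through one-carbon units to purines fell together. Of 20 genes of serine, glycine, folate and methionine metabolism, 9 (45.0%) were lower and 4 higher (median -0.77), and 9 and 2 without odor replicates 1 and 6. No fly left out brought the 9 under 7, but the 4 rises became 2 for 8 of 12 flies left out. The 3 steps of serine synthesis were all lower: CG6287 (phosphoglycerate dehydrogenase) was at 468 to 846 RPKM (median 656) in odor flies and 199 to 318 RPKM (median 256) in sucrose flies (log2 difference -1.35 ± 0.16, limma adjusted p = 0.00095). CG11899 (phosphoserine aminotransferase) was at 230.2 to 405 RPKM (median 282) and 81.2 to 162 RPKM (median 129.6) (log2 difference -1.24 ± 0.17, limma adjusted p = 0.0017). aay (phosphoserine phosphatase) was at 379 to 906 RPKM (median 734) and 92.4 to 174 RPKM (median 148), a 4.97-fold lower median (log2 difference -2.19 ± 0.27, limma adjusted p = 0.0011). Shmt, which moves a carbon from serine to folate, was at 310.2 to 865 RPKM (median 405) and 28.7 to 192 RPKM (median 129.9) (log2 difference -2.21 ± 0.43, limma adjusted p = 0.0057). The folate enzymes Nmdmc and pug, which pass that carbon on, fell as well: Nmdmc from 281 to 859 RPKM (median 629) to 68.1 to 405 RPKM (median 98.6) (log2 difference -2.21 ± 0.44, limma adjusted p = 0.0061) and pug from 240.2 to 367 RPKM (median 282) to 68.4 to 190.5 RPKM (median 173) (log2 difference -0.97 ± 0.23, limma adjusted p = 0.013). Of these 6 genes the groups overlapped for Nmdmc. The highest difference of the list was that of CG8665, a dehydrogenase of formyl folate, at 0.772 to 18.2 RPKM (median 1.51) in odor flies and 9.59 to 54.8 RPKM (median 42.9) in sucrose flies (log2 difference 3.62 ± 0.64, limma adjusted p = 0.0044), and 1 odor fly lay inside the sucrose range. On the methionine side Sam-S, which makes S-adenosylmethionine and was named after its values were seen, rose from a median of 60.7 to 79.5 RPKM (log2 difference 0.29 ± 0.08, limma adjusted p = 0.02).

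In nucleotide synthesis 6 of 20 genes were lower and 4 higher, and these numbers were the same without odor replicates 1 and 6. The 6 lower genes all belong to the making of purines from the start, up to inosine monophosphate and the branch to AMP, and they remained 6 whichever fly was left out. Prat2 (FBgn0041194, 3L, 6911999 to 6914876), the first committed enzyme, was at 289.7 to 743 RPKM (median 353) in odor flies and 85.5 to 129.6 RPKM (median 102) in sucrose flies (log2 difference -1.85 ± 0.21, limma adjusted p = 0.00089). Gart, which carries 3 activities of the pathway, was at 223 to 542 RPKM (median 325) and 21.8 to 95.7 RPKM (median 70.6) (log2 difference -2.49 ± 0.36, limma adjusted p = 0.0017). Pfas, which acts between them, fell from 94.9 to 675 RPKM (median 245) to 22.3 to 55.4 RPKM (median 44.3), a 5.53-fold lower median (log2 difference -2.50 ± 0.46, limma adjusted p = 0.0048). Sucrose flies were below all odor flies in each of these genes, and also in Paics (medians 709 and 208 RPKM; log2 difference -1.87 ± 0.26, limma adjusted p = 0.0017), in CG11089, the last enzyme before inosine monophosphate (medians 1009.8 and 247 RPKM; log2 difference -2.42 ± 0.44, limma adjusted p = 0.0048), and in Adsl (medians 96.3 and 52.6 RPKM; log2 difference -1.09 ± 0.19, limma adjusted p = 0.004). The second gene of the first step, Prat, was far less abundant than Prat2 per length and was not called (odor 2.95 to 4.03, sucrose 2.81 to 3.77 RPKM; log2 difference -0.06 ± 0.09, limma adjusted p = 0.66), and neither was Adss of the AMP branch (log2 difference -0.40 ± 0.20, limma adjusted p = 0.17). Prat and Adss were picked after their values were seen, as were Adsl and r.

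Of the 4 rises in nucleotide synthesis, ras and r had groups that were apart. ras, the dehydrogenase that leads to guanine nucleotides, was at 32.7 to 37.8 RPKM (median 34.8) in odor flies and 46.1 to 52.8 RPKM (median 48.1) in sucrose flies (log2 difference 0.47 ± 0.05, limma adjusted p = 0.00089). r, the 3-activity enzyme that starts pyrimidine synthesis, was at 1.37 to 2.05 RPKM (median 1.47) and 3.15 to 6.71 RPKM (median 4.16) (log2 difference 1.18 ± 0.17, limma adjusted p = 0.002). Both rises were kept in every alternative.

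**Figure D4:**
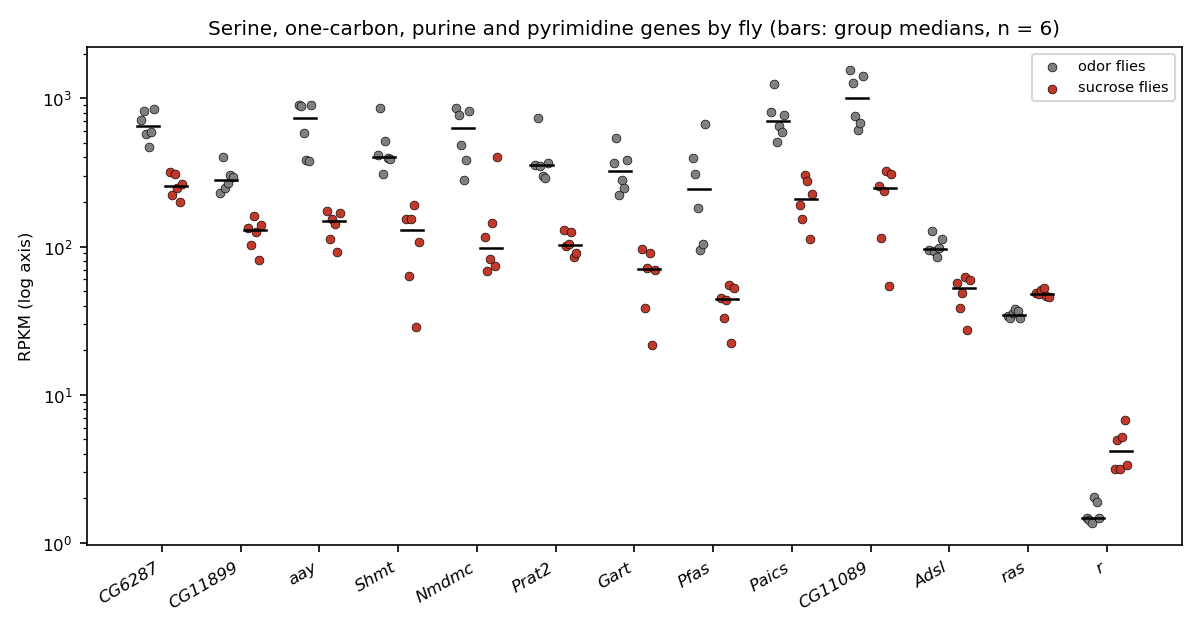
RPKM (log axis) of 13 enzymes of serine, one-carbon, purine and pyrimidine synthesis in each odor fly (grey) and sucrose fly (red), with bars at the medians of 6 flies. The 3 serine genes, Shmt and the 6 purine genes are lower in every sucrose fly than in every odor fly, Nmdmc overlaps in 1 sucrose fly at 405 RPKM, and ras and r are higher.

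Several insulin-pathway genes and FOXO targets were lower, while no change was detected in the insulin-like peptides of the brain. Of 17 genes of insulin signalling, FOXO targets and the adipokinetic hormone, 9 (52.9%) were lower and 1 higher (median -0.31), and 8 and 1 without odor replicates 1 and 6 (median -0.17). ImpL2 (FBgn0001257, 3L, 4224006 to 4236147), a secreted protein that binds insulin-like peptides and damps the pathway, was at 43.2 to 133 RPKM (median 84.7) in odor flies and 6.69 to 13.2 RPKM (median 10) in sucrose flies, an 8.44-fold lower median (log2 difference -2.90 ± 0.27, limma adjusted p = 0.00038). Thor, the translation brake 4E-BP and a FOXO target, was at 441 to 2006 RPKM (median 1281) and 204 to 379 RPKM (median 282) (log2 difference -1.93 ± 0.38, limma adjusted p = 0.0059). foxo itself was at 22.8 to 52.9 RPKM (median 33.4) and 16.4 to 21.1 RPKM (median 18.1) (log2 difference -0.88 ± 0.18, limma adjusted p = 0.0076). The kinases Akt and Lk6 fell by less, with log2 differences of -0.73 ± 0.17 and -0.86 ± 0.18 (adjusted p = 0.013 and 0.0076, limma), and their groups overlapped at the edge. srl, the fly PGC-1 coactivator of mitochondrial genes, was the 1 that rose, from 0.859 to 1.7 RPKM in odor flies to 1.76 to 4.52 RPKM in sucrose flies (log2 difference 0.84 ± 0.18, limma adjusted p = 0.0083). Ilp2, Ilp3 and Ilp5, the peptides of the insulin-producing neurons, had log2 differences of 0.00 ± 0.05, -0.03 ± 0.14 and 0.48 ± 0.40 and were not called. They were named after their values were seen.

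Around TOR, the kinase complex that reads amino acids, 7 of 16 genes were lower and 1 higher (median -0.19), and 5 and 0 without odor replicates 1 and 6 (median -0.08). Sesn, which restrains TOR when amino acids are short, was at 62.5 to 97.8 RPKM (median 90.4) in odor flies and 38 to 49.7 RPKM (median 43.9) in sucrose flies (log2 difference -0.92 ± 0.12, limma adjusted p = 0.0016). REPTOR and REPTOR-BP, the transcription factor pair that is active when TOR is off, had medians of 22.9 and 94.7 RPKM in odor flies and 13 and 70.4 RPKM in sucrose flies (log2 differences -0.77 ± 0.17 and -0.45 ± 0.10, limma adjusted p = 0.0097 and 0.0096). unk, which acts downstream of TOR in fly development, fell from 15.1 to 24.1 RPKM (median 19.2) to 11 to 14.8 RPKM (median 12.1) (log2 difference -0.61 ± 0.12, limma adjusted p = 0.0064). Sucrose flies lay below the odor flies in these genes, except at the edge of REPTOR-BP. For unk, sucrose replicate 6 lay above the other sucrose flies (14.8 against 11 to 12.1 RPKM).

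Genes of both routes of protein breakdown were among those lower. Of 24 autophagy genes 12 (50.0%) were lower and 0 higher (median -0.34), and 7 were lower without odor replicate 6, without sucrose replicate 2 and without odor replicates 1 and 6. In the last of these settings the median was -0.20. Atg8a, the ubiquitin-like protein of the autophagosome membrane, was at 369.8 to 752 RPKM (median 530.1) in odor flies and 260.3 to 325 RPKM (median 290.1) in sucrose flies (log2 difference -0.87 ± 0.17, limma adjusted p = 0.0065). Atg18b was at 31.3 to 83.8 RPKM (median 46.6) and 25.4 to 30.3 RPKM (median 28) (log2 difference -0.87 ± 0.21, limma adjusted p = 0.016), and Atg9, the membrane protein of the pathway, fell by 0.67 on the log2 scale (adjusted p = 0.011, limma). Of 33 proteasome subunits 20 (60.6%) were lower and 0 higher. All 33 differences were below 0, from -0.46 to -0.06 (median -0.24). The count was 12 without odor replicate 1 or without sucrose replicate 2 and 9 without odor replicates 1 and 6, where the median was -0.22. Rpn6, a scaffold of the lid, was at 42.9 to 63.4 RPKM (median 55.4) in odor flies and 36.6 to 44 RPKM (median 40.6) in sucrose flies (log2 difference -0.46 ± 0.09, limma adjusted p = 0.0053), and the ubiquitin receptor Rpn13 at 31.7 to 47.8 RPKM (median 39.2) and 24.2 to 30.4 RPKM (median 28.3) (log2 difference -0.46 ± 0.10, limma adjusted p = 0.0074). The base ATPases Rpt1 and Rpt5 had log2 differences of -0.40 ± 0.09 and -0.37 ± 0.07 (limma adjusted p = 0.0084 and 0.0056). Among 17 lysosomal genes 6 were lower and 1 higher (5 and 1 without odor replicates 1 and 6), led in abundance by the cathepsins CtsB (218 to 416 RPKM (median 276) and 155 to 195 RPKM (median 174); log2 difference -0.69 ± 0.14, limma adjusted p = 0.0059) and CtsL1 (399 and 259 RPKM; log2 difference -0.60 ± 0.13, limma adjusted p = 0.0084; adjusted p = 0.0607 under quantile normalization), the second named after its values were seen. Both cathepsins were lower in every sucrose fly.

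**Figure D5:**
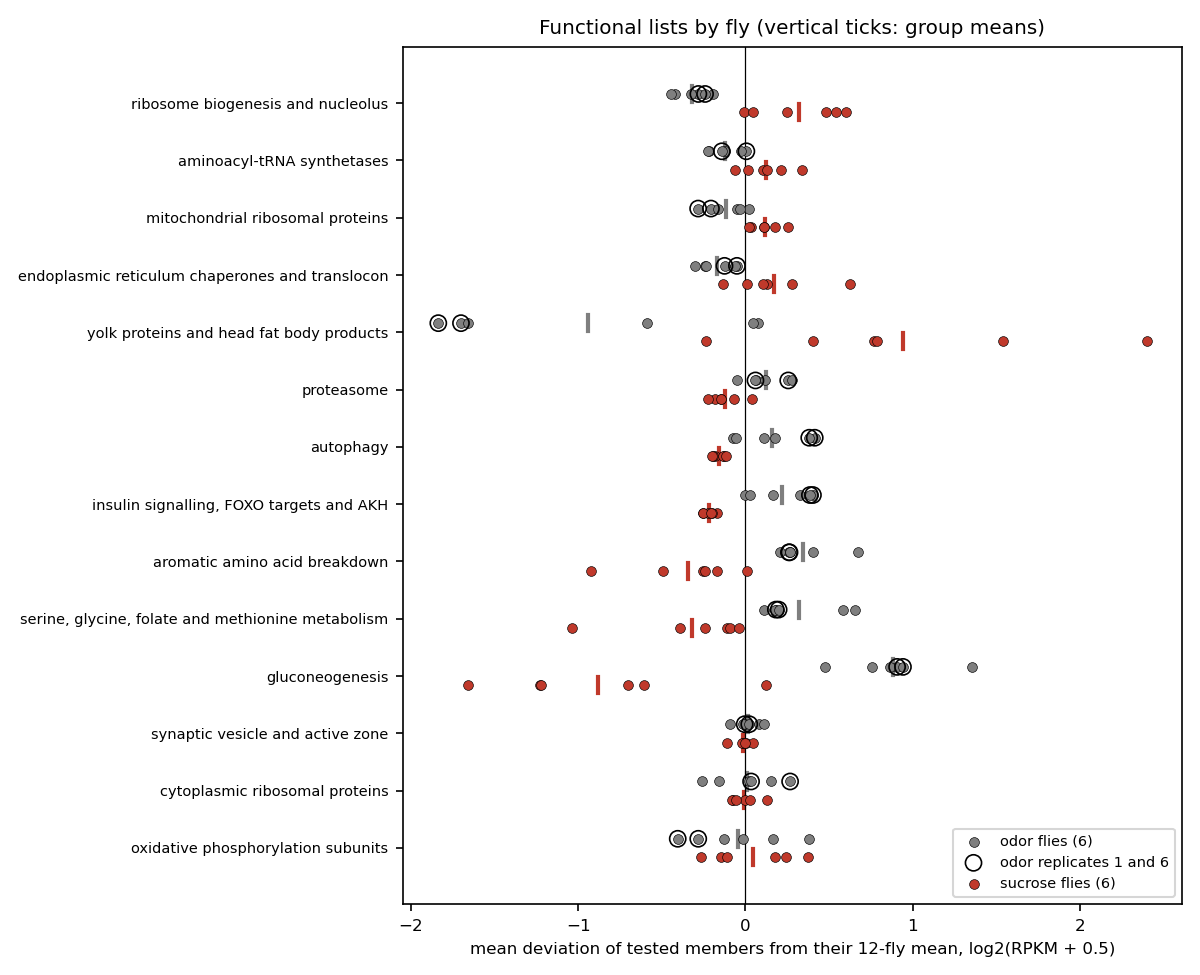
Mean deviation of a list's tested members from their 12-fly mean, on the log2(RPKM + 0.5) scale, for 14 lists in each odor fly (grey) and sucrose fly (red), with group means as vertical ticks and odor replicates 1 and 6 circled. Insulin and autophagy lists are lower in every sucrose fly than in every odor fly, the head fat body list runs from -1.84 to 2.40 with odor replicates 1 and 6 at the low end, and the synaptic list stays within 0.2 of 0.

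Genes in 6 lists of the nervous system moved little. The 6 lists for synaptic vesicle and active zone, channels, transmitter receptors, transmitter synthesis, surface and guidance proteins and phototransduction held 228 tested genes, of which 8 (3.51%) were higher and 9 (3.95%) lower, against 10.6% and 11.5% of all genes. Without odor replicates 1 and 6 the numbers were 3 and 3. Of these genes, 89.5% lay within 0.2 of 0, and their median was -0.03. Lists of memory, clock, glial and neuropeptide genes, given below, were not in this pool. Nor were odorant-binding proteins, of which 4 of 31 (12.9%) were higher and 1 (3.23%) lower. Without odor replicates 1 and 6 these counts were 1 and 0. None of 37 synaptic genes was called (0 higher, 0 lower, limma). The potassium channel KCNQ was at 75.5 to 114.9 RPKM (median 93.3) in odor flies and 63.6 to 71.5 RPKM (median 66.3) in sucrose flies (log2 difference -0.48 ± 0.11, limma adjusted p = 0.01), and the leak channel sand at 1.69 to 3.08 RPKM (median 2.31) and 2.57 to 6.15 RPKM (median 4.18) (log2 difference 0.71 ± 0.18, limma adjusted p = 0.02). Part of the KCNQ exons overlap an antisense gene. Hr38 (log2 difference 0.16 ± 0.18, limma adjusted p = 0.54) and sr (log2 difference -0.15 ± 0.16, limma adjusted p = 0.53), transcription factor genes that rise with neuronal activity in insects, were not called 4 h after training.

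Among 41 genes with a known part in fly memory, 5 (12.2%) were higher and 6 (14.6%) lower, near the 10.6% and 11.5% of all genes (median -0.05), and 3 and 1 without odor replicates 1 and 6. The 6 falls became 3 when odor replicate 1 or 6 or sucrose replicate 2 was left out, and the 5 rises became 3 for 8 of 12 flies left out. Of 15 clock genes 2 were higher and 3 lower, and 1 and 2 without odor replicates 1 and 6. per and tim, the core repressors that rise and fall over the day, had medians of 13.8 and 49.4 RPKM in odor flies and 12.7 and 45.9 RPKM in sucrose flies and were not called (log2 differences -0.10 ± 0.09 and -0.14 ± 0.07, limma adjusted p = 0.44 and 0.19). tws, a phosphatase subunit that acts on the clock, fell from 27.5 to 42.6 RPKM (median 33.7) to 23.5 to 26 RPKM (median 24.2) (log2 difference -0.49 ± 0.10, limma adjusted p = 0.0057). to (takeout), a clock-controlled gene linked to feeding, rose from 4.44 to 11.3 RPKM (median 9.28) to 12.5 to 17.4 RPKM (median 14.9) (log2 difference 0.80 ± 0.19, limma adjusted p = 0.014). Both were apart.

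Of 20 glial genes 7 were higher and 2 lower (median 0.27), 3 and 1 without odor replicates 1 and 6, and the 7 became 4 without odor replicate 1 or 6 or sucrose replicate 3 or 5. wrapper, a surface protein of glia that ensheathe neurons, was at 2.17 to 11.7 RPKM (median 6.53) in odor flies and 14 to 17.8 RPKM (median 16.4) in sucrose flies (log2 difference 1.41 ± 0.34, limma adjusted p = 0.016). Indy, a citrate transporter also found in fat body, fell from 54.8 to 82.2 RPKM (median 60) to 23.8 to 44.7 RPKM (median 38) (log2 difference -0.82 ± 0.17, limma adjusted p = 0.0067). The summed RPKM of 6 glial markers was 238 to 343 in odor flies and 311 to 392.5 in sucrose flies, with 2 of them called higher. Whether this bore on the 7 rises was not tested. Among 33 neuropeptide genes 2 (6.06%) were higher and 2 (6.06%) lower, against 10.6% and 11.5% of all genes, and 0 and 1 without odor replicates 1 and 6. ETH, the ecdysis-triggering hormone, was at 4.3 to 6.48 RPKM (median 5.25) and 1.07 to 2.8 RPKM (median 1.66) (log2 difference -1.39 ± 0.17, limma adjusted p = 0.0013), although most of its exons overlap an antisense gene.

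Of 73 cytochrome P450 genes, whose enzymes oxidize hormones, lipids and foreign compounds, 17 (23.3%, against 11.5% of all genes) were lower and 8 (10.96%, against 10.6%) higher, and 12 and 5 without odor replicates 1 and 6. The 8 rises became 5 without any one of odor replicates 1, 3 and 6 or sucrose replicates 2 to 5. Cyp4ac3, named after its values were seen, fell from 7.97 to 25.1 RPKM (median 18.4) to 4.12 to 6.85 RPKM (median 5.76) (log2 difference -1.45 ± 0.26, limma adjusted p = 0.0047), while Cyp313a1 rose from 14.9 to 59.2 RPKM (median 37.3) to 64.8 to 111 RPKM (median 95.8) (log2 difference 1.5 ± 0.33, limma adjusted p = 0.01) and Cyp4d21 from 0.555 to 3.5 RPKM (median 1.33) to 3.74 to 7.6 RPKM (median 5.05) (log2 difference 1.60 ± 0.30, limma adjusted p = 0.0051). Of 36 genes for glutathione transferases and glutathione synthesis, 5 (13.9%) were lower and 3 (8.33%) higher, near the 11.5% and 10.6% of all genes. Without odor replicates 1 and 6, 10 were lower and 2 higher, and the median moved from -0.04 to -0.30. The glutathione transferase GstT4 was at 85.4 to 149.9 RPKM (median 138) in odor flies and 43.3 to 70.8 RPKM (median 55.5) in sucrose flies (log2 difference -1.12 ± 0.18, limma adjusted p = 0.0029). Of the 2 subunits of the enzyme that limits glutathione synthesis, the catalytic Gclc fell from 26.6 to 17.2 RPKM (log2 difference -0.59 ± 0.11, limma adjusted p = 0.0051) and the modifier Gclm rose from 31.6 to 42.4 RPKM (log2 difference 0.53 ± 0.10, limma adjusted p = 0.0055). In both the groups were apart.

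In the immune lists, 0 of 14 antimicrobial peptides and 0 of 12 bomanins were called by limma, with wide spread in the sucrose group: 1 fly, sucrose replicate 6, had a mean deviation of 6.02 on the log2 scale over the antimicrobial peptides, while the other 5 lay between -1.11 and -0.499. The list median was 0.75, and -0.581 without that fly. PGRP-SD, a secreted peptidoglycan receptor, was at 4.91 to 27.9 RPKM (median 6.36) in odor flies and 28.2 to 271 RPKM (median 48.4) in sucrose flies (log2 difference 2.72 ± 0.55, limma adjusted p = 0.0068) and was called whichever fly was left out. Of 39 genes for recognition, Imd and Toll signalling, 7 (17.9%) were lower and 1 (2.56%) higher, against 11.5% and 10.6% of all genes. Only 4 were lower without odor replicate 6 or sucrose replicate 2, and 3 without odor replicates 1 and 6.

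Sorbose flies share the odor controls, so their calls are not independent of those above and are given as values. Against odor, 1355 genes (12.2%) were higher and 1347 (12.2%) lower in sorbose flies, in the fit of all 18 flies. In that fit 1448 genes were higher and 1593 lower in sucrose flies, whereas the sucrose counts above came from 12 flies. For sucrose it gave 40 nucleolar genes higher and 2 lower, and 47 and 1 in the mitochondrial ribosome. Autophagy genes were then higher in 0 and lower in 14 after sucrose, and insulin-related genes in 2 and 9. Of the nucleolar genes 34 were higher and 4 lower in sorbose flies (median 0.42 against 0.60 after sucrose), and Fib was at 5.28 to 8.56 RPKM (median 6.95), between the other groups. In the mitochondrial ribosome 43 were higher and 1 lower. Autophagy genes were lower in 14 and higher in 1, insulin-related genes lower in 9 and higher in 2, and the 6 purine genes were lower in sorbose flies too, with Prat2 at a median of 92.3 RPKM and aay at 146 RPKM, near the sucrose medians of 102 and 148. Some values lay nearer to odor: 0 of 33 proteasome genes were called (limma; median -0.09), the gluconeogenesis median was -0.19 with 1 of 5 lower, and fbp stood at 181 RPKM beside 183 in odor flies. The 1 gluconeogenesis gene called was Pepck2, whose sorbose median of 7.4 RPKM was nearer to the 3.09 of sucrose than to the 37.3 of odor flies (sorbose minus odor -2.21 on the log2 scale, adjusted p = 0.0019, limma). sug had a sorbose median of 1.93 RPKM, between 0.849 and 9.55 RPKM, and Got1 one of 444 RPKM, between 611 and 225 RPKM.

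Tested directly, sucrose and sorbose flies differed in 1 gene of 11062 (0.00904%, limma), the lipase CG5966 (log2 difference -4.27 ± 0.44, adjusted p = 0.00029), and 1102 genes had an unadjusted p under 0.05. For fbp the difference was -1.04 ± 0.26 (adjusted p = 0.15, limma), for sug 1.18 ± 0.58 (adjusted p = 0.52) and for Fib 0.99 ± 0.20 (adjusted p = 0.075). Sucrose and sorbose flies did not overlap in Fib although its adjusted p missed the threshold. In a fit of the 12 sucrose and sorbose flies alone, 8 genes were called (3 higher and 5 lower after sucrose), among them CG5966 and, from the lists and named after their values were seen, GstT3, a glutathione transferase (log2 difference -1.01, adjusted p = 0.0373, limma), and eIF3d1, named for a translation initiation factor subunit (0.34, adjusted p = 0.0373, limma).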

How the data were processed

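Poly-A RNA of single female heads was sequenced from non-stranded libraries. Reads were aligned by the authors to dm6 with TopHat2 2.0.13 and summarized over Ensembl genes, and the values deposited are RPKM made with edgeR 3.18.1; another passage of their methods names an older aligner and build. Gene names and coordinates came from the Ensembl 115 annotation of dm6 for 17253 of 17559 identifiers and from the gene tables of the study for 33 more. Reads of overlapping genes cannot be assigned to one of them, and genes that share most of their exons are named where this matters. Depth was recovered from the steps between low RPKM values.

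Genes whose RPKM averaged 0.5 or more in the 12 flies were fitted as log2(RPKM + 0.5) with limma 3.58.1 (R 4.3.3; eBayes with a trend), and p-values were adjusted by Benjamini-Hochberg over all tested genes. The fit was tested on simulated data. Nothing in the labels says that the flies were raised or trained apart, so that p-values measure the spread between these heads. The comparison of sorbose with the other groups used one fit of 18 flies. The comparison, the lists and their members were chosen with earlier results of these data known. Of 2011 listed genes 1972 were matched and 1576 tested, since 396 lay under the RPKM minimum, so counts within a list cover the tested members only. For each list, the genes named are key members and the up to 4 called members with the largest difference (8 where most members were called), together with the 10 rises and 10 falls of smallest p among listed genes whose groups were apart. From these, genes whose call rested on a single fly were in most cases left to the counts, so that the genes described are steadier than the rest. Alternatives were pseudocounts of 0.1 and 1, a minimum RPKM of 5 and none, median-of-ratios and quantile scaling, array weights, voom on recovered reads, a replicate block, a fit of 18 flies and leaving out each fly. Leaving out odor replicates 1 and 6 together was chosen after seeing the data. Figures were drawn with matplotlib 3.10.9.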

Additional observations from a re-analysis of the deposited data

Results flagged for a closer look

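Within groups of 6, a fly was set aside from the others where its gap to the nearest fly exceeded Dixon's critical share of the group's range. Chance does this in about 1 of 20 groups, and 15 of 258 gene groups and 11 of 134 list groups were found. Sucrose replicate 6 accounted for 7 of them, sucrose replicate 3 for 7, odor replicate 2 and sucrose replicate 5 for 5 each and odor replicate 5 for 2.

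Sucrose replicate 6 was high in immune genes. Its mean deviation (log2 scale, from the 12-fly mean) was 6.02 for antimicrobial peptides against -1.11 to -0.499 in the other sucrose flies, 1.57 for bomanins against -0.757 to -0.0882, and 0.524 for recognition, Imd and Toll genes against -0.191 to 0.0345. Odor flies ran from -1.46 to 1.87 for antimicrobial peptides and from -1.02 to 1.60 for bomanins. In sucrose replicate 6 PGRP-SD was at 271 RPKM against 28.2 to 57.7. The same fly was high for Adss (92.1 RPKM against 58.6 to 62.3), unk (14.8 against 11 to 12.1) and the TOR list (-0.00154 against -0.172 to -0.125).

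Sucrose replicate 3 was low in neuronal lists, at -0.18 for channels against -0.00626 to 0.062, -0.0798 for olfactory, ionotropic and gustatory receptors against -0.000816 to 0.0289, and -0.134 for surface and guidance proteins against -0.0247 to 0.0385. It was high for the Turandot stress genes (3.49 against -0.531 to 0.876), Yp3 (5340 RPKM against 1370 to 2170), Pepck2 (7.87 RPKM against 2.54 to 3.35) and GstT3 (11.3 RPKM against 5.68 to 7.25).

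Odor replicate 2 was high for Prat2 (743 RPKM against 290 to 368), Dbct (30.1 against 16.5 to 20.2), Indy (82.2 against 54.8 to 62) and the peroxisome list (0.307 against -0.0269 to 0.0621), and low for memory genes (-0.0867 against 0.00129 to 0.0473). Sucrose replicate 5 was low for the serine, glycine, folate and methionine list (-1.03 against -0.392 to -0.04), pug (68.4 RPKM against 133 to 190), Cyp313a1 (64.8 against 92.2 to 111), Hex-A (73.3 against 80.9 to 85.7) and eIF3d1 (55.6 against 62.8 to 66.9). Odor replicate 5 was high for Nop60B (3.58 RPKM against 2.33 to 2.63) and CG8665 (18.2 against 0.772 to 1.97).

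The contrast of each sugar with odor differed for CG5966, where sucrose minus sorbose was -4.27 on the log2 scale.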

How the results depend on the processing

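The count of 2447 genes that differed between sucrose and odor became 1155 without odor replicates 1 and 6 together (added after seeing the data) and 276 with an absolute log2 difference of at least 1 required. It ran from 1556 (without odor replicate 6) to 2994 (without odor replicate 4) over single flies left out. The count was higher still with array weights (3463) and in the fit of 18 flies (3041). Sucrose and sorbose differed in 8 genes (3 higher, 5 lower) in a fit of those 12 flies alone, against 1 gene. The count of genes whose groups were apart, 1045, was 847 at a minimum of 5 RPKM, where fewer genes were tested, and ran from 1026 to 1496 otherwise.

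The replicate number did not pair the flies, since deviations of same-numbered odor and sucrose flies correlated between -0.343 and 0.239. With a replicate block 1794 genes were called (887 higher, 907 lower).

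Of 244 called genes named by the rule or in the text, 134 were called in every alternative, 167 whichever fly was left out, 147 without odor replicates 1 and 6 and 194 with the block, and no direction was reversed among genes of the text. Of 49 list counts of at least 3, 27 moved by over 1.5 times without odor replicates 1 and 6, 12 with the block, 16 without odor replicate 6, 15 without sucrose replicate 2 and 0 under either pseudocount, median-of-ratios scaling or voom. List medians moved by over 1 SD of the fly values in 13 of 1540 cases. Of the 26 medians of at least 0.2 in size, 1 changed sign, that of antimicrobial peptides (-0.581 without sucrose replicate 6).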
